A study of Mus musculus with 11 samples.

Results

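The cytokine receptors of B cells were examined as 10 genes taken as a list of names: Il21r, Il4ra, Il2rg, Il9r, Il6ra, Il10ra, Il13ra1, Ifngr1, Ifnar1 and Tgfbr2. The list was chosen with earlier results of these data known. All 10 were found by Ensembl identifier among the 48795 genes of the expression table, which held 11 libraries. The libraries came from splenic B cells of female mice aged 8 to 12 weeks on the C57BL/6 background, 10 days after intravenous immunization with sheep red blood cells, an antigen that needs T cell help. In all, 4 libraries were light zone (LZ) germinal center (GC) B cells of Myc WT mice, numbered 1 to 4 here, 4 were LZ B cells of Myc V394D mice, numbered 5 to 8, and 3 were memory B cells (MBCs) of the Myc WT mice 1, 3 and 4. The V394D allele encodes a MYC protein that does not bind MIZ1 and still binds MAX. It lies at the endogenous Myc locus in every cell of the mouse and was not restricted to B cells. LZ cells were sorted on B220, CD95 and CD86 with low CXCR4 and low CD38, and MBCs on B220, CD38 and CD273 without IgD. Since V394D is a coding change, the Myc transcript level could not check the genotype.

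Cytokine receptors pair chains at the cell surface and pass the signal to Janus kinases bound to their tails, which phosphorylate STAT transcription factors. Il2rg encodes the common gamma chain, shared by the receptors for IL-2, IL-4, IL-7, IL-9, IL-15 and IL-21. The private chains Il4ra, Il9r and Il21r give it its ligand. IL-4 and IL-21 from T follicular helper cells act on GC B cells, interferons act through STAT proteins, and TGF-β acts through a serine/threonine kinase receptor and SMAD proteins rather than through Janus kinases.

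The promoters of 5 members are shown because 4 of these genes were higher in MBCs than in LZ B cells of Myc WT mice, while the fifth, Il21r, was not. RefSeq promoter entries were found for 9 of 10 members, Il10ra being the one without. Each run is the 250 bases before the annotated RefSeq start, 5′ to 3′ on the strand of the gene, with capitals for matches to 1 of 4 motifs. The motifs, chosen after the values were seen and searched on both strands, were the E-box CACGTG, the GAS element TTCNNNGAA, the GC box GGGCGG and the ETS-type motif CGGAAG.
Il2rg (GRCm38.p6, chrX:101268256-101268505, minus strand): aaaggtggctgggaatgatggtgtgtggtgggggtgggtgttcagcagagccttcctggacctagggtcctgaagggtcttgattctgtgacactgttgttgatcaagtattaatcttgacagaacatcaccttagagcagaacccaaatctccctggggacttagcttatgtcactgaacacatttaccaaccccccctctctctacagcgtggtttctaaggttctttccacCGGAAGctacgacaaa
Il9r (GRCm38.p6, chr11:32200280-32200529, minus strand): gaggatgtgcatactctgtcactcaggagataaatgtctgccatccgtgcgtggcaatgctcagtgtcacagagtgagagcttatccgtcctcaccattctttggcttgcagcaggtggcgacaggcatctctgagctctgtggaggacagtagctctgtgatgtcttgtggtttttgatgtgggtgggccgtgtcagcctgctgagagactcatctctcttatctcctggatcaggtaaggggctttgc
Tgfbr2 (GRCm38.p6, chr9:116175364-116175613, minus strand): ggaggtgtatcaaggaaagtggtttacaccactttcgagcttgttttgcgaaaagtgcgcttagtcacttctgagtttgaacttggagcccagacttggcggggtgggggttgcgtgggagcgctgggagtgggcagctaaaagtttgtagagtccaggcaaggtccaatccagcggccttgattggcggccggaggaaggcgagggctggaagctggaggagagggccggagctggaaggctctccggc
Ifngr1 (GRCm38.p6, chr10:19591699-19591948, plus strand): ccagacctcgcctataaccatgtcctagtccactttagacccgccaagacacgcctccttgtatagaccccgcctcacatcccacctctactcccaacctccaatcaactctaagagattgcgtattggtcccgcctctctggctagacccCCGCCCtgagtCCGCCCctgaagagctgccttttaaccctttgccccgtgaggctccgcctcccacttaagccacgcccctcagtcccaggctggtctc
Il21r (GRCm38.p6, chr7:125603179-125603428, plus strand): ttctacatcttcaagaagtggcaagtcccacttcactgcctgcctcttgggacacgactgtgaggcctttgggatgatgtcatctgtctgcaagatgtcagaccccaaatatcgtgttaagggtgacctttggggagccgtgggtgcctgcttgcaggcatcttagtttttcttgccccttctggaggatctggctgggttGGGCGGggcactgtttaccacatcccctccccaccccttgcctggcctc
The 4 promoters of genes that were higher in MBCs shared no motif. Il2rg held 1 ETS-type motif, Ifngr1 held 2 GC boxes, Il21r held 1 GC box, and Il9r and Tgfbr2 held no match in these windows. None of the 5 held an E-box or a GAS element. Over 32851 mouse promoters of the same length, the E-box stood in 6.02%, the GAS element in 7.02%, the GC box in 32.7% and the ETS-type motif in 13.6%.

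Values are TPM, which give a share of each library's transcripts corrected for transcript length, so that levels may be set beside each other between genes. The number of reads behind them is unknown. Genes above 0 numbered 15460 to 19537 in Myc WT LZ, 13169 to 16421 in Myc V394D LZ and 11527 to 16040 in MBC libraries. Mouse 6 had the fewest in Myc V394D LZ and mouse 3 the fewest in MBCs. Ribosomal RNA genes took 35.7% to 44.5% of TPM in Myc WT LZ, 44.1% to 61.3% in Myc V394D LZ and 36.1% to 37.5% in MBC libraries. The MBC library of mouse 3 stood apart in hemoglobin transcripts, with 4298.2 TPM summed over 4 erythroid markers against 31.7 to 106.8 in Myc WT LZ. The summed level of 8 myeloid markers was 31.3, 37.3 and 172.4 TPM in MBCs of mice 1, 3 and 4 and at most 9.10 in Myc WT LZ. S100a8 and S100a9 were listed at 0 in all 3 MBC libraries. The sum of 8 T cell markers was 0, 0 and 13.2 TPM in MBCs of mice 1, 3 and 4 and 1.72 to 9.42 in the LZ libraries. The part of these transcripts in the results was not tested. Myeloid transcripts were above Myc WT LZ in all 3 MBC libraries, so values without 1 library do not test their part. Of 7 GC markers, 5 fell in MBCs and none rose, and of 7 memory markers 6 rose and none fell, of which Cd38 and Pdcd1lg2 encode proteins of the gate. Of 5 markers of naive B cells, 4 rose in MBCs, and their sum was 903 to 953 TPM against 368 to 372 in Myc WT LZ. The summed level of 6 general B cell markers was 5294.5 to 7171.4 TPM in MBCs against 3074.6 to 3804.2 in Myc WT LZ. The mice 1 to 3 shared one name prefix, mouse 4 had another and mice 5 to 8 one of their own, so that genotype and name prefix cannot be told apart.

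Across the 3 groups Il2rg was the most abundant member and Il13ra1 the least. In Myc WT LZ the order of mean TPM was Il2rg, Il4ra, Il21r, Ifngr1, Tgfbr2, Ifnar1, Il10ra, Il9r, Il6ra and Il13ra1. The neighbors Il4ra and Il21r, Ifngr1 and Tgfbr2, and Il10ra and Il9r overlapped between libraries, and the other neighbors did not. In Myc V394D LZ the order was Il2rg, Il21r, Il4ra, Ifngr1, Tgfbr2, Ifnar1, Il9r, Il10ra, Il6ra and Il13ra1, and only Ifnar1 and Il9r, and Il6ra and Il13ra1, were neighbors whose values did not overlap. In MBCs the order was Il2rg, Il4ra, Ifngr1, Tgfbr2, Il21r, Ifnar1, Il9r, Il10ra, Il6ra and Il13ra1. Here the ranges over libraries did not overlap between Il2rg and Il4ra, Ifngr1 and Tgfbr2, and Il6ra and Il13ra1, while those of the other neighbors did. Within each MBC library Il21r also lay above Ifnar1 and Il9r above Il10ra.

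**Figure D1:**
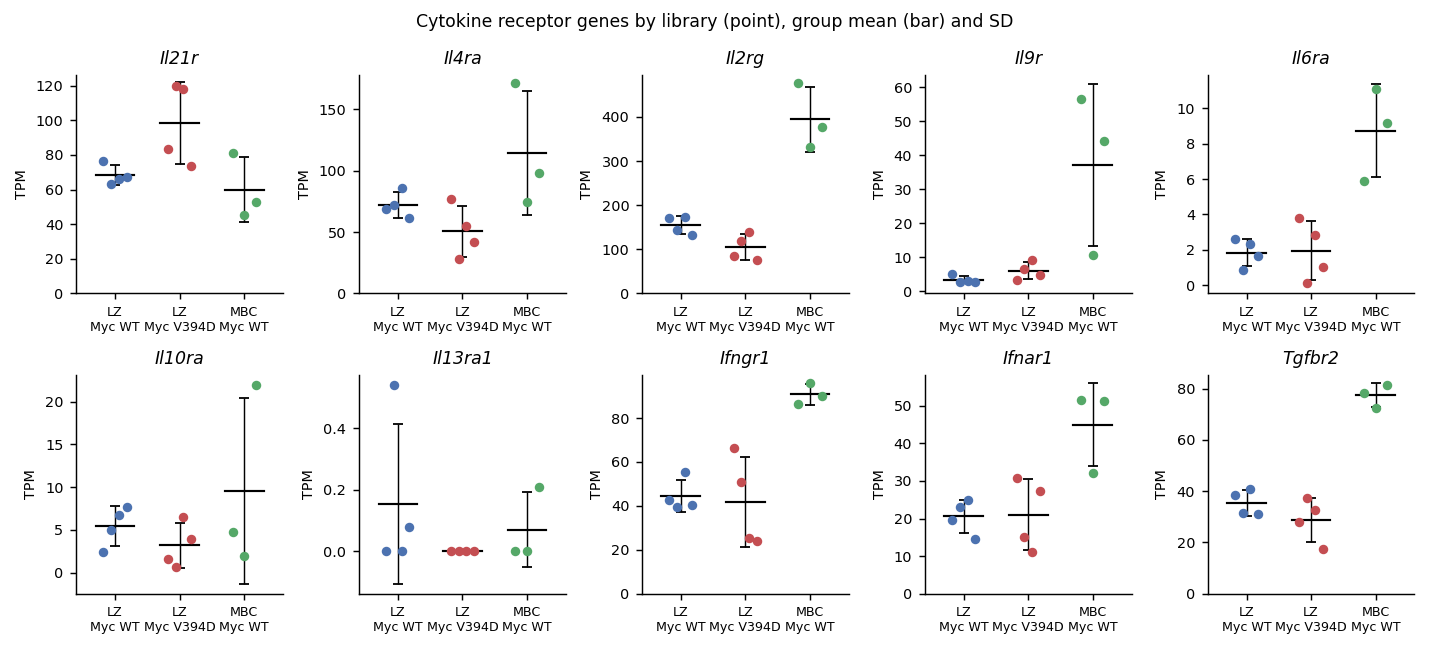
TPM of the 10 cytokine receptor genes (y axis, from 0, one scale per gene) in Myc WT LZ (n = 4), Myc V394D LZ (n = 4) and Myc WT MBC (n = 3) libraries; points are libraries, bars are group means and whiskers 1 SD. The 3 MBC points lie above all Myc WT LZ points for Il2rg, Il9r, Il6ra, Ifngr1, Ifnar1 and Tgfbr2, and the 2 LZ groups overlap for every gene.

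The first question was which receptors differed between MBCs and the LZ B cells of Myc WT mice. In MBCs 4 of the 9 members tested rose and none fell (limma on log2(TPM + 1), Benjamini-Hochberg adjusted p under 0.05 over 13245 genes). They were the common gamma chain Il2rg, the IL-9 receptor chain Il9r, the interferon-γ receptor chain Ifngr1 and the TGF-β receptor Tgfbr2. Over all genes 4.17% rose and 5.04% fell by this rule. The median difference of the 9 members was 1.09 on the log2 scale, against -0.14 over all genes tested. At an unadjusted p under 0.05, 6 of the 9 were higher, against 11.3% of all genes. The MBC libraries lay wholly above the LZ libraries for 6 of the 9 and wholly below for 0, against 11.8% and 14.4% of all genes. Since the members were chosen with earlier results of these data known, these shares are a description. All 9 had a mean in Myc WT LZ above the filter of 1 TPM, so that none entered through MBCs alone. Il13ra1 was below the filter and was not tested. In bulk samples a larger share of cells with a transcript and more transcript per cell cannot be told apart.

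These calls rested on few libraries. With the mouse as a block, over the 3 mice with both libraries, 0 of the 9 members passed, with adjusted p-values (limma) of 0.075 for Il2rg, 0.094 for Il9r, 0.255 for Tgfbr2 and 0.269 for Ifngr1, and 4 of the 9 had an unadjusted p under 0.05. Without any single Myc WT LZ library only Il2rg passed. Among the mice of one name prefix, 1 to 3, the log2 differences were 1.28 for Il2rg (limma adjusted p = 0.0342), 2.53 for Il9r (0.095), 1.02 for Tgfbr2 (0.075) and 0.99 for Ifngr1 (0.082).

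Il2rg (chrX:101264378-101268255, minus strand, GRCm38) measured 171.6, 144.0, 173.9 and 132.4 TPM in LZ B cells of Myc WT mice 1 to 4. In MBCs of mice 1, 3 and 4 it measured 476.2, 331.7 and 378.1 TPM. The lowest MBC value was well above the highest LZ value, and the ratio of the means was 2.54. The log2 difference was 1.33 ± 0.21 (SE; limma adjusted p = 0.0087). With an exact two-sided permutation test, which doubled the smaller tail, p was 0.057, the smallest this test can give for 3 against 4 libraries. Without any one library the difference lay between 1.19 and 1.45. Gm20489, a gene model on the same strand that spans Il2rg, was listed at 0 in all 11 libraries.

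Il9r (chr11:32187541-32200279, minus strand), the private chain for IL-9, had the largest log2 difference of the 9 members tested. It measured 4.96, 2.74, 2.96 and 2.65 TPM in Myc WT LZ and 56.4, 10.6 and 44.2 TPM in MBCs of mice 1, 3 and 4. All MBC values were higher, and mouse 3 lay much closer to LZ than mice 1 and 4 did. The log2 difference was 2.88 ± 0.60 (SE; limma adjusted p = 0.0233), and it was 3.59 without the MBC library of mouse 3 and 2.43 without that of mouse 1 (adjusted p = 0.0491). Without the filter on low values the adjusted p of Il9r (limma) was 0.056.

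Tgfbr2 (chr9:116084293-116175360, minus strand) encodes the ligand-binding type II chain for TGF-β. It measured 38.6, 31.3, 41.0 and 31.0 TPM in Myc WT LZ and 78.5, 72.6 and 81.6 TPM in MBCs. The MBC libraries were close to each other and all above LZ. The log2 difference was 1.12 ± 0.25 (SE; limma adjusted p = 0.0300), a ratio of means of 2.19.

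Ifngr1 (chr10:19591949-19610229, plus strand), the ligand-binding chain for interferon-γ, measured 42.7, 39.6, 55.2 and 40.4 TPM in Myc WT LZ and 86.2, 96.0 and 90.1 TPM in MBCs. The groups did not overlap, and the 3 MBC values spanned less than the 4 LZ values. The log2 difference was 1.02 ± 0.25 (SE; limma adjusted p = 0.0355). With all 3 groups in 1 fit the adjusted p of Ifngr1 was 0.075.

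Ifnar1 (chr16:91485238-91507441, plus strand) and Il6ra missed the threshold although their groups did not overlap. Ifnar1, a chain of the type I interferon receptor, measured 19.6, 23.2, 24.8 and 14.6 TPM in Myc WT LZ and 51.4, 32.2 and 51.2 TPM in MBCs, a log2 difference of 1.09 ± 0.34 (SE; limma adjusted p = 0.077). Its adjusted p was 0.0303 without the MBC library of mouse 3 and 0.0375 after median ratio scaling. Il6ra (chr3:89864059-89913196, minus strand), which binds IL-6 and signals through gp130, measured 2.59, 0.88, 2.31 and 1.64 TPM in Myc WT LZ and 5.90, 11.1 and 9.17 TPM in MBCs. Its log2 difference was 1.77 ± 0.50 (SE; limma adjusted p = 0.058). Without the MBC library of mouse 1 the adjusted p of Il6ra was 0.0467.

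Il4ra, Il21r and Il10ra overlapped between MBCs and LZ B cells. Il4ra (chr7:125552120-125579474, plus strand), the chain that binds IL-4, measured 69.0, 71.8, 86.3 and 61.1 TPM in Myc WT LZ and 171.3, 74.1 and 98.5 TPM in MBCs. Its log2 difference was 0.59 with a 95% interval of -0.132 to 1.302 (limma adjusted p = 0.274), and it was 0.25 without the MBC library of mouse 1. Gm44876, an antisense gene within Il4ra, measured 162.2 TPM in the MBC library of mouse 1, where Il4ra was highest, and 0 in those of mice 3 and 4. Counting used strand, and the part of Gm44876 in the Il4ra value was not tested. Il21r (chr7:125603429-125633570, plus strand), the chain for IL-21, measured 76.5, 63.2, 65.9 and 67.4 TPM in Myc WT LZ and 81.2, 45.4 and 53.1 TPM in MBCs. It was higher than all LZ libraries in 1 MBC library and lower than all in the other two, and its log2 difference was -0.23 with a 95% interval of -0.85 to 0.40 (limma adjusted p = 0.639). It was -0.46 without the MBC library of mouse 1 and -0.05 without that of mouse 3. Il4ra and Il21r lie 23954 bases apart on the same strand of chromosome 7.

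Il10ra (chr9:45253837-45269149, minus strand) encodes the IL-10 binding chain. It measured 2.40, 4.98, 6.78 and 7.66 TPM in Myc WT LZ and 4.72, 1.95 and 22.0 TPM in MBCs of mice 1, 3 and 4. Its log2 difference was 0.26 with a 95% interval of -1.41 to 1.93 (limma adjusted p = 0.856) and turned to -0.57 without the MBC library of mouse 4. That library also had the highest myeloid marker sum, 172.4 TPM, with Lyz2 at 135.6 TPM, C1qb at 16.3, Itgam at 9.18, Adgre1 at 6.35, C1qa at 3.36 and Fcgr1 at 1.59. C1qb was highest in the MBC library of mouse 1, at 27.3 TPM, and was 0.16 in that of mouse 3. The part of these transcripts in the Il10ra value was not tested. For the members as a whole, 4 of the 9 passed without the MBC library of mouse 4 and 5 without the hemoglobin-rich library of mouse 3. Il13ra1 (chrX:36112110-36171259, plus strand), which pairs with Il4ra in the type II receptor for IL-4 and IL-13, was listed at 0 in 8 of 11 libraries and reached at most 0.54 TPM.

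**Figure D2:**
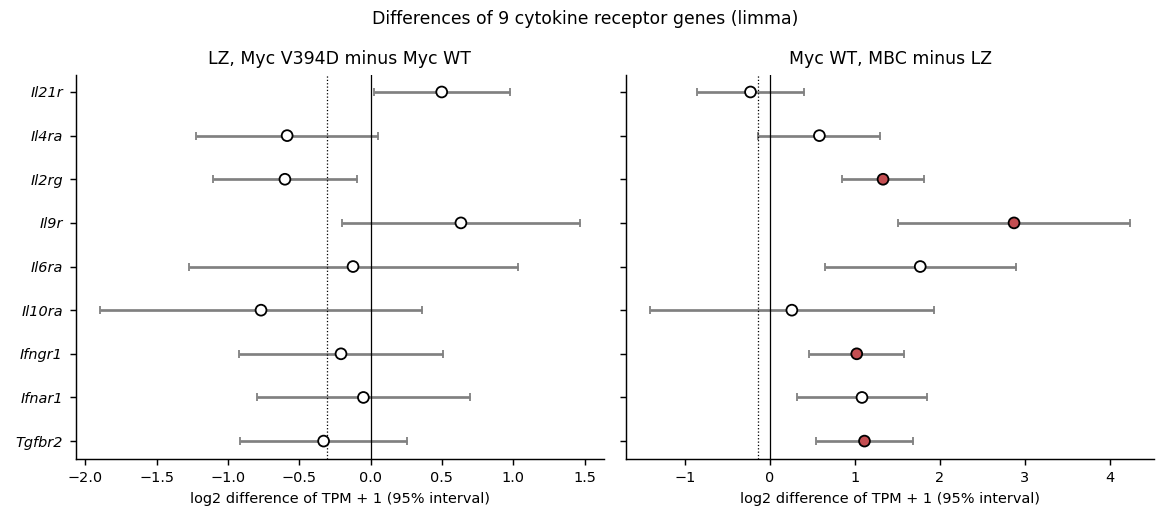
Log2 differences of TPM + 1 (x axis) for the 9 members tested, with 95% intervals from limma, for Myc V394D minus Myc WT LZ (left) and for MBC minus LZ of Myc WT (right); filled points had an adjusted p under 0.05 and dotted lines mark the median of all genes, -0.31 and -0.14. On the right Il2rg, Il9r, Ifngr1 and Tgfbr2 are filled, and on the left no point is.

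The second question was whether the receptors differed between Myc V394D and Myc WT LZ B cells. None of the 9 members passed the adjusted threshold (limma), by which 0.0466% of 12869 genes passed. At an unadjusted p under 0.05, 1 member (Il21r) was higher and 1 (Il2rg) was lower, against 1.24% and 15.7% of all genes. This count of 2 was 0 without the Myc WT library of mouse 3 and 3 without the Myc V394D library of mouse 5. Under the other settings it was 1 or 2. No member had groups that did not overlap, against 0.816% of all genes wholly higher and 9.16% wholly lower. The median difference over all genes was -0.31 on the log2 scale, and it was -0.01 after median ratio scaling. The share of ribosomal RNA moved with the genotype, and with ribosomal RNA, mitochondrial and immunoglobulin genes removed 0 of the 9 members passed. Both comparisons used the same 4 Myc WT LZ libraries.

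Il21r measured 83.5, 119.6, 118.2 and 73.5 TPM in Myc V394D mice 5 to 8, against 63.2 to 76.5 in Myc WT. The mice 5 to 7 lay above every Myc WT library and mouse 8 between them. The log2 difference was 0.50 ± 0.22 (SE; limma adjusted p = 0.277), or 0.81 relative to the median of all genes. The exact two-sided permutation test gave p = 0.057, where 4 against 4 could reach 0.0286. After median ratio scaling the difference of Il21r was 0.84.

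Il2rg measured 84.9, 119.5, 138.9 and 75.2 TPM in Myc V394D LZ, against 132.4 to 173.9 in Myc WT. In 3 of 4 mice it was below every Myc WT library, with mouse 7 inside their range. The log2 difference was -0.60 ± 0.23 (SE; limma adjusted p = 0.229), or -0.29 relative to the median of all genes, and the exact two-sided permutation p was 0.057. After median ratio scaling it was -0.26.

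Il9r measured 3.23, 6.52, 9.11 and 4.79 TPM in Myc V394D LZ, with a log2 difference of 0.63 and a 95% interval of -0.20 to 1.47 (limma adjusted p = 0.424). The difference of Il9r was 0.91 after median ratio scaling and 1.01 with ribosomal RNA, mitochondrial and immunoglobulin genes removed. Il4ra measured 76.6, 27.9, 55.3 and 42.1 TPM, with a log2 difference of -0.59 and an interval of -1.22 to 0.05 (limma adjusted p = 0.334). After median ratio scaling the difference of Il4ra was -0.25, and without mouse 6 it was -0.34. Il9r and Il4ra both overlapped Myc WT, Il4ra through mouse 5 alone. The remaining members spread widely. Ifngr1 ran from 24.2 to 66.2 TPM, with mice 5 and 6 high and mice 7 and 8 low. Ifnar1 ran from 11.1 to 30.7 TPM, Tgfbr2 from 17.4 to 37.5, Il10ra from 0.66 to 6.50 and Il6ra from 0.11 to 3.78. Their log2 differences were -0.21 for Ifngr1, -0.05 for Ifnar1, -0.33 for Tgfbr2, -0.77 for Il10ra and -0.12 for Il6ra, each with a 95% interval that held 0. Without mouse 6 that of Il10ra was -0.40, and without mouse 8 that of Tgfbr2 was -0.11. After median ratio scaling that of Il10ra was -0.50. Those of Ifngr1, Ifnar1, Tgfbr2 and Il6ra changed sign after median ratio scaling. Il13ra1 was listed at 0 in all 4 Myc V394D libraries.

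Plain TPM ratios of chains within a library do not depend on the scaling of that library and are given as a description. Log2 ratios of TPM + 1 depend on it to some extent, mostly for low genes such as Il9r. The ratio of Il21r to Il2rg (plain TPM) was 0.446, 0.439, 0.379 and 0.509 in LZ of Myc WT mice 1 to 4. It was 0.984, 1.00, 0.851 and 0.977 in Myc V394D mice 5 to 8, and 0.170, 0.137 and 0.140 in MBCs of mice 1, 3 and 4. The 3 groups did not overlap, with Myc V394D LZ highest and MBCs lowest. The difference of the group means of the log2 ratio of TPM + 1 from Myc WT LZ was 1.10 in Myc V394D LZ and -1.56 in MBCs. In the same Myc V394D comparison the ratio to Il2rg lay wholly higher for 7.77% of all genes, and among MBCs wholly lower for 55.1%.

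The ratio of Il9r to Il2rg was 0.0170 to 0.0289 in Myc WT LZ, 0.0381 to 0.0656 in Myc V394D LZ and 0.0320 to 0.118 in MBCs. Both groups lay above Myc WT LZ, the MBC library of mouse 3 only just. The share of all genes whose ratio to Il2rg lay wholly higher in MBCs was not counted, so for MBCs this is a description. The ratio of Il4ra to Il2rg was 0.402 to 0.499 in Myc WT LZ and 0.223 to 0.360 in MBCs, which lay lower. In Myc V394D LZ it ran from 0.234 to 0.902, to both sides of Myc WT. Against Il2rg, 2 of the 3 private chains lay wholly higher in Myc V394D LZ, against 7.77% of all genes. In MBCs 2 of the 3 lay wholly lower, a share near the 55.1% of all genes. The ratio of Il21r to Il4ra, added after the values were seen, was 0.763 to 1.11 in Myc WT LZ, 1.09 to 4.28 in Myc V394D LZ and 0.474 to 0.612 in MBCs.

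**Figure D3:**
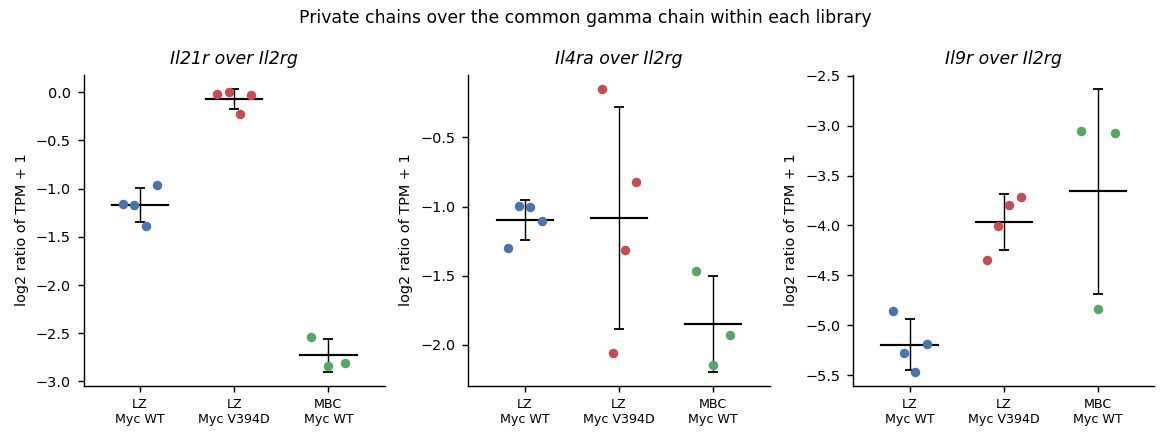
Log2 ratio of TPM + 1 (y axis) of Il21r, Il4ra and Il9r over Il2rg within each library in the 3 groups; points are libraries, bars are group means and whiskers 1 SD. For Il21r the Myc V394D LZ libraries lie at -0.23 to 0.0017, the Myc WT LZ libraries at -1.39 to -0.96 and the MBC libraries at -2.84 to -2.54.

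Several partner chains of the other receptors varied widely among the MBC libraries. The ratios of Ifngr1 to Ifngr2, Ifnar1 to Ifnar2, Tgfbr2 to Tgfbr1, Il6ra to Il6st and Il10ra to Il10rb overlapped between all groups. Ifngr2, the signaling chain for interferon-γ, measured 105.7, 19.3 and 43.6 TPM in MBCs of mice 1, 3 and 4 against 15.9 to 17.6 in Myc WT LZ (limma adjusted p = 0.127). Ifnar2 measured 2.68, 23.9 and 55.3 TPM in MBCs of mice 1, 3 and 4 against 5.00 to 12.0 in Myc WT LZ (limma adjusted p = 0.487). Tgfbr1, the type I kinase that Tgfbr2 activates, measured 62.5, 11.2 and 28.5 TPM in MBCs and 20.7 to 25.6 in Myc WT LZ. Il13ra2, a decoy receptor for IL-13, was listed at 0 in all 11 libraries.

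Of the 62 other genes of these routes, 42 were tested between MBCs and LZ, 3 rose and none fell, where 4.17% of all genes rose and 5.04% fell. Of the 42, Il15ra, Ski and Cish averaged under 1 TPM in Myc WT LZ and were tested only through MBC values. Of the other 39 genes 2 rose, and their median log2 difference was 0.30, against -0.14 over all genes. By list, 2 of 6 STATs, 1 of 11 other receptors tested (Il15ra), 0 of 5 partner chains, 0 of 4 Janus kinases, 0 of 7 SMAD pathway genes, 0 of 8 feedback genes and 0 of 1 ligand rose. With the mouse as a block 0 of these genes passed the adjusted threshold (limma) and 7 had an unadjusted p under 0.05, and 0 passed without any single Myc WT LZ library. Without the MBC library of mouse 1, 5 rose, without that of mouse 3, 7 rose, and without that of mouse 4, 4 rose and 2 fell.

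Stat4, best known downstream of IL-12 and type I interferon, measured 5.05, 3.32, 3.23 and 2.76 TPM in Myc WT LZ and 73.6, 14.9 and 20.4 TPM in MBCs of mice 1, 3 and 4. Its log2 difference was 2.70 ± 0.58 (SE; limma adjusted p = 0.0253). Stat6, the STAT of IL-4 signaling, measured 34.2, 33.8, 31.1 and 32.5 TPM in Myc WT LZ and 177.4, 79.5 and 62.2 TPM in MBCs, a log2 difference of 1.51 ± 0.37 (SE; limma adjusted p = 0.0367). Both were higher in every MBC library, most of all in mouse 1. Stat3, used by IL-21, IL-6 and IL-10, measured 55.4 to 77.0 TPM in Myc WT LZ and 65.5 to 154.6 in MBCs, with a log2 difference of 0.54 (limma adjusted p = 0.317). Il15ra, which presents IL-15, measured 0.54 to 1.46 TPM in Myc WT LZ and 42.7, 24.9 and 2.64 TPM in MBCs. Its log2 difference was 3.10 ± 0.82 (SE; limma adjusted p = 0.0497), but since it entered the test through the MBC values alone, this call is no support for a difference.

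Among the genes that missed the threshold were further receptors and the Janus kinases. Of the 11 other receptors tested, 7 had a log2 difference above 0 and 4 below. Il12rb1 was at -1.27 (limma adjusted p = 0.186) and Ifnlr1 at -0.72 (limma adjusted p = 0.431). Il17ra measured 98.2, 93.5 and 72.4 TPM in MBCs of mice 1, 3 and 4 against 42.0 to 59.9 in Myc WT LZ (limma adjusted p = 0.081). Il5ra, the IL-5 binding chain, measured 18.9, 6.58 and 31.1 TPM in MBCs against 1.90 to 4.25 in Myc WT LZ (limma adjusted p = 0.057). Jak1, the kinase that most of these receptors use, measured 184.9 to 210.2 TPM in MBCs against 92.9 to 138.8 (limma adjusted p = 0.075). Jak3, which binds the common gamma chain, measured 15.3, 31.1 and 16.4 TPM in MBCs against 7.91 to 13.75 (limma adjusted p = 0.185). Jak2 differed by -0.01 on the log2 scale with a 95% interval of -0.71 to 0.69. Tyk2 measured 32.8, 4.70 and 11.2 TPM in MBCs of mice 1, 3 and 4 against 6.35 to 8.48 (limma adjusted p = 0.532). The MBC values of Jak1 and Jak3 lay above all Myc WT LZ values, as did those of 11.8% of all genes, and those of Jak2 and Tyk2 overlapped.

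Ligand transcripts were scarce. Of 11 ligand genes only Tgfb1 exceeded 1 TPM on average in Myc WT LZ, at 36.8 ± 5.3 TPM (SD, n = 4), against 72.8 ± 28.6 (SD, n = 3) in MBCs (limma adjusted p = 0.135). Il4 was listed at 5.99 TPM in the MBC library of mouse 1 and at 0 in the other 10 libraries. Il10 was at 8.93 TPM in the Myc V394D library of mouse 5 and at most 0.32 elsewhere. Il15 was at 5.02 TPM in the MBC library of mouse 4 and at most 1.08 elsewhere. Il9, Il6, Ifng and Ifnb1 were listed at 0 in all 11 libraries.

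**Figure D4:**
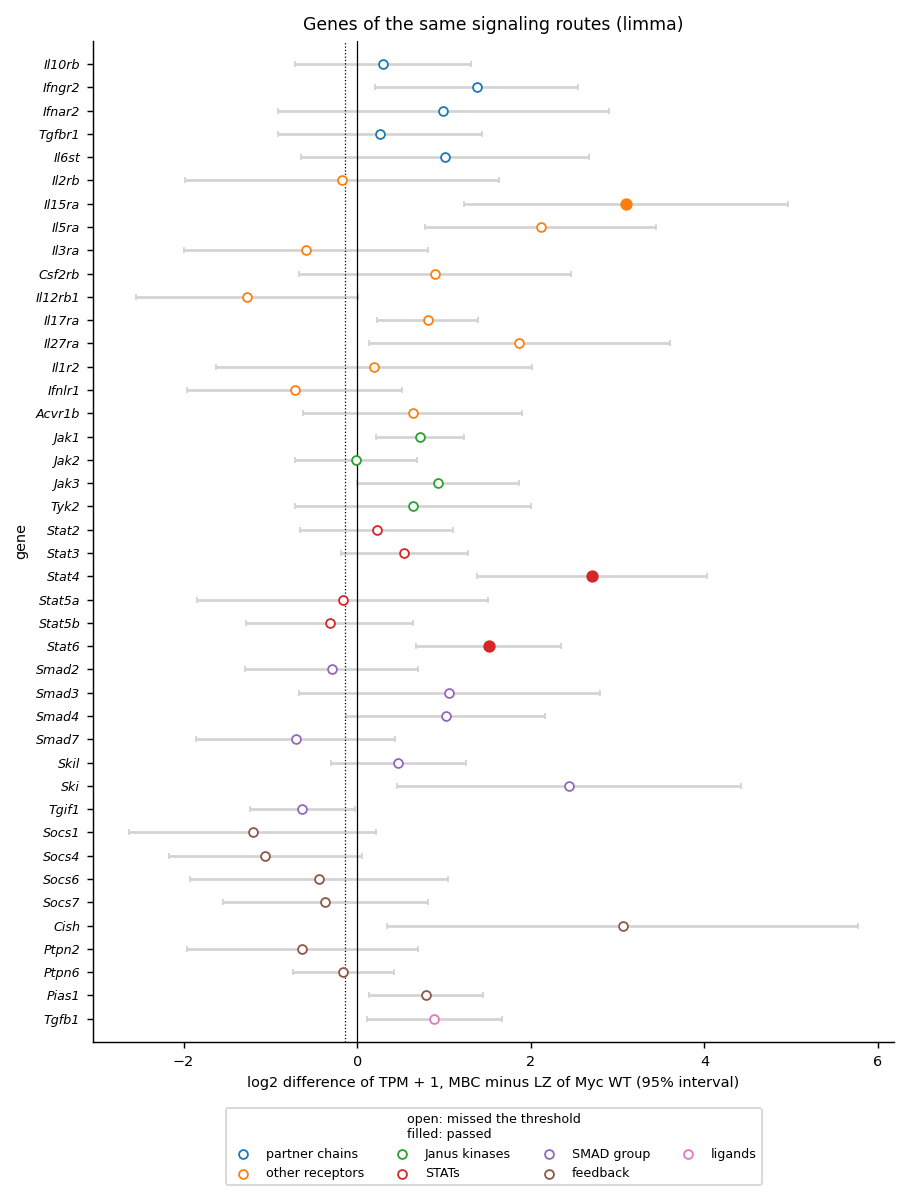
Log2 differences of TPM + 1, MBC minus LZ of Myc WT (x axis), with 95% intervals from limma, for the 42 tested genes of the same signaling routes (y axis), colored by list; filled points had an adjusted p under 0.05 and the dotted line marks the median of all genes, -0.14. The filled points are Il15ra, Stat4 and Stat6, all to the right of 0.

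Between Myc V394D and Myc WT LZ, 0 of the 39 genes of these routes tested passed the adjusted threshold (limma). At an unadjusted p under 0.05, 0 were higher and 7 were lower, near the 15.7% of all genes that were lower by this rule. After median ratio scaling, and likewise with ribosomal RNA, mitochondrial and immunoglobulin genes removed, 0 were lower and 1 was higher (Ifnlr1). With all 3 groups in 1 fit 1 was lower, with a pseudocount of 0.1 there were 6, and without the filter 9 of 56. Without the Myc WT libraries of mice 1, 2, 3 and 4 in turn 7, 2, 1 and 4 were lower, and without any one Myc V394D library 6 or 7. The 7 that were lower on TPM as deposited were Tgif1, Ptpn6, Ptpn2, Ifnar2, Socs1, Tgfbr1 and Acvr1b, named because of these values. Tgfbr1 measured 19.3, 13.1, 15.9 and 9.42 TPM in Myc V394D LZ, below all Myc WT libraries, with a log2 difference of -0.65 (limma adjusted p = 0.253). Socs1, an inhibitor of Janus kinases, measured 0.43 to 1.48 TPM against 2.28 to 3.32, and Ptpn6, the phosphatase SHP-1, 118.6 to 167.6 TPM against 186.6 to 228.1. The log2 differences were -1.03 for Socs1 (limma adjusted p = 0.230) and -0.50 for Ptpn6 (limma adjusted p = 0.223). Relative to the median of all genes these differences were -0.35 for Tgfbr1, -0.72 for Socs1 and -0.19 for Ptpn6. The 3 genes lay wholly lower in Myc V394D LZ, as did 9.16% of all genes, and were picked for their low values. The log2 differences of the 6 STATs tested ran from -0.19 for Stat5b to 0.16 for Stat5a, or from 0.12 to 0.47 relative to the median over all genes.

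For the 3 most abundant members the genes with the most alike profile were sought over 11 libraries, by the mean absolute difference of centered log2(TPM + 1). For Il2rg they were Ifi209 at 0.16 and Trim34a at 0.16. For Il4ra they were Zfp664 at 0.11 and Sdf4 at 0.16. For Il21r they were Tpm3-rs7 at 0.19 and the processed pseudogene Gm5879 at 0.19. The same 11 libraries underlie both profiles of each pair, so the likeness is a description.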

How the data were processed

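RNA of sorted B cells was sequenced on an Illumina HiSeq. The values are TPM, deposited by the authors as 1 table of 48795 genes, after alignment to GRCm38 with STAR 2.5.2a and strand-specific estimation with RSEM 1.3.0. TPM keep no depth, so the precision of low values is unknown. The members and lists were chosen with earlier results of these data known. Groups came from the sample labels. Genes that averaged 1 TPM or more in the compared libraries were tested with limma 3.58.1 (trend) on log2(TPM + 1), without a mouse term, with Benjamini-Hochberg adjustment over all genes at 0.05, so fold changes of low genes are understated. The code was tested on simulated data. Exact permutation tests used scipy 1.17.1. Named genes were the members, partner chains, route genes past the threshold, ligands above 1 TPM and the 2 genes most like each of the 3 most abundant members. Other route genes, markers and overlapping genes were named after their values were seen. MBC and LZ libraries of mice 1, 3 and 4 are paired because each pair came from 1 mouse per the labels. Deviations of paired libraries correlated across 13245 genes at 0.0051, 0.011 and -0.047. Alternatives were another pseudocount, no filter, median ratio scaling, removal of 820 ribosomal RNA, mitochondrial and immunoglobulin genes, a joint fit, the mouse block, 1 name prefix, and leaving out each library. A gene of these routes is not reported here. Coordinates came from GENCODE M21 (GRCm38) and promoters from RefSeq (GRCm38.p6).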

Additional observations from a re-analysis of the deposited data

Results flagged for a closer look

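Of 37 groups of 4 libraries examined, 2 held a library far from the rest, and chance alone flags about 1 group in 20. In Myc WT LZ B cells Il9r in mouse 1 was at 2.58 on the log2(TPM + 1) scale, with a gap to the nearest library of 0.834 of the range of the group. The log2 ratio of Il21r to Il2rg in the Myc V394D LZ library of mouse 7 was -0.23, lower than in the other 3 mice, with a gap of 0.848 of the range. It still lay above all Myc WT libraries.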

How the results depend on the processing

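Of 243 recomputed member differences, 201 kept their direction and side of the threshold, 21 lost the call, 3 gained it and 18 turned sign. The cause of these changes was not tested. The sign changes were all in members that missed the threshold. In Myc V394D against Myc WT LZ, median ratio scaling and removal of ribosomal RNA, mitochondrial and immunoglobulin genes gave 0.057 and 0.016 for Il6ra, 0.13 and 0.13 for Ifngr1, 0.28 and 0.29 for Ifnar1, and 0.0048 and 0.0078 for Tgfbr2. Leaving out 1 library gave -0.43 to 0.28 for Il6ra, -0.47 to 0.0030 for Ifngr1, -0.26 to 0.20 for Ifnar1, -1.13 to -0.40 for Il10ra and -0.47 to -0.11 for Tgfbr2, and for Il10ra in MBCs -0.57 to 0.91. With mice 1 to 3 alone Il10ra in MBCs was at -0.40.

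The members past the threshold in MBCs were 4, and 3 without the filter, 3 in the joint fit, 1 with mice 1 to 3 alone, 0 with the mouse as a replicate block and 1 to 5 when 1 library was left out. The other genes of these routes were 3, and 0 without the filter, 0 with the block and 0 to 7 when 1 library was left out. All genes past it were 1219, of which 552 were higher and 667 lower. They were 608 without the filter, 248 with the block and 342 to 2754 when 1 library was left out, the highest without the MBC library of mouse 4. In Myc V394D against Myc WT LZ, 6 genes passed, and 0 with a pseudocount of 0.1, 0 without the filter, 0 after median ratio scaling, 1 after removal of those genes, 0 in the joint fit and 0 to 254 when 1 library was left out, the highest without mouse 5. No member passed in that comparison under any of these settings. Leaving out an LZ library leaves 3 against 3, or 3 against 4 in the genotype comparison. Depth is unknown, so a low TPM such as that of Il6ra or Il13ra1 has no counting interval.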
